A study of Mus musculus with 4 samples.

Results

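The genes described are 6 components of MHC class II antigen presentation, which were taken from the deposited table by their symbols. They are H2-Aa, H2-Ab1 and H2-Eb1, which encode chains of the class II molecules themselves, H2-DMa, a chain of the peptide exchange factor, Cd74, the invariant chain, and Ciita, the transactivator. All 6 were among the 22554 genes of the table, and all 6 passed the filter on low counts. RNA was sequenced from ILC2s, the innate lymphoid cells that make type 2 cytokines, sorted from the lungs of wild-type BALB/c mice aged 6 weeks. The sort kept lineage-negative cells that carried CD45, CD127 and ST2, and all cells were then cultured with IL-2, IL-7 and IL-33. In the 5D group (2 libraries) compound 5D, a blocker of the Orai calcium channels, was added to the culture, and the vehicle group (2 libraries) received vehicle in its place, so that both groups used here were stimulated. The culture was a selected and stimulated population outside the lung, and the labels do not say whether the libraries of a group came from separate mice or cultures, so that p-values measure the spread between these libraries, which may be technical.

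MHC class II molecules are pairs of an α and a β chain that show peptides, cut from proteins inside endosomes, to CD4 T cells. In the mouse, I-A is the pair of H2-Aa and H2-Ab1, and I-E is the pair of H2-Ea and H2-Eb1. The invariant chain Cd74 fills the groove of a new molecule and leads it to the endosome, where proteases trim it to a short peptide, which H2-DM then exchanges for others. B cells, dendritic cells and macrophages are the main class II cells, and ILC2s have been described as able to carry class II molecules at a lower level. Ciita does not bind DNA itself. It is recruited to class II promoters by RFX, CREB and NF-Y, which sit on the X and Y boxes, short motifs that lie a fixed distance apart.

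RefSeq promoter windows from the GRCm38.p6 build are shown for the genes on which the results below turn. Each covers 250 bases before and 50 bases after a RefSeq start of the gene. Windows, matched by symbol, were used for 3 of the 6 genes, and none was used for H2-Ab1, Cd74 and Ciita. The windows are chr17:34287774-34288073 on the minus strand for H2-Aa, chr17:34305617-34305916 on the plus strand for H2-Eb1, and chr17:34122582-34122881 on the plus strand for the first of 2 starts of H2-DMa. Capitals mark GCAAC, letters that lie in the X box, and GATTGG, the reverse complement of the CCAAT core of the Y box, where both lie on 1 strand in that order with their starts 20 to 45 bases apart.
H2-Aa: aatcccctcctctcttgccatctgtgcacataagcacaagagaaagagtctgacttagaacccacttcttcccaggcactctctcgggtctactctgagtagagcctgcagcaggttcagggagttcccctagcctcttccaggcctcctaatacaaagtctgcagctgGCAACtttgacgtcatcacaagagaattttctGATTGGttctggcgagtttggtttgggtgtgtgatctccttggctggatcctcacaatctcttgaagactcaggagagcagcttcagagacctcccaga
H2-Eb1: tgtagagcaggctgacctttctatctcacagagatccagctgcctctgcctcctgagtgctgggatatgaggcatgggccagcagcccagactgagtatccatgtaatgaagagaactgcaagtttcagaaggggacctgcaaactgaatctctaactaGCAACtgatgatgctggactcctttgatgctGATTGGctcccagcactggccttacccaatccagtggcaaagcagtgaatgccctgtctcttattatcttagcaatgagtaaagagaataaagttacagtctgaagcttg
H2-DMa: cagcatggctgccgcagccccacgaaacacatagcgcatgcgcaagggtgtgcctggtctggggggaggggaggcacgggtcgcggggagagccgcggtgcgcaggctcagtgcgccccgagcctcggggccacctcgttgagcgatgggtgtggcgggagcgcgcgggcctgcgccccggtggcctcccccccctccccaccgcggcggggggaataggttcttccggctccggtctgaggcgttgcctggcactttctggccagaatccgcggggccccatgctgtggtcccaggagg
In the H2-Aa window the starts of the 2 motifs lay 32 bases apart, and GATTGG began 49 bases before the start of the gene (position -49). In the H2-Eb1 window the distance was 31 bases, with GATTGG at -60. Neither H2-DMa window held the ordered motifs, although the first held GCAAC and the second GATTGG on some strand. Both H2-DMa windows lie inside the span of the gene in GENCODE M21, which begins at chr17:34119541. Neither was shown to be the promoter of the transcripts counted here. Of 32851 promoter windows of the same length, 35.2% held GCAAC and 16.1% held GATTGG on either strand, while 143, or 0.435%, held both in that order and spacing. The motifs were searched on both strands and do not overlap each other, and their letters and spacing were chosen after the windows of class II genes had been read. The match describes the reference sequence and says nothing of binding in these cells, and no match in H2-DMa says only that these letters are not in these windows.

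The libraries held 20096555 to 23239853 estimated counts with vehicle and 26912708 to 28697265 with 5D. Levels are given as normalised CPM, the count per 1000000 counts of a library whose total was scaled by its upper quartile, and intervals of a single library are exact 95% Poisson intervals for counting error only. All 10 ILC2 markers were present, with a summed level of 9585 to 10458 normalised CPM, among them Gata3, the lineage factor of ILC2s, at 1091 to 1108 and Il1rl1, the gene of ST2, at 627 to 732. The 6 class II genes together gave 996 and 844 counts with vehicle and 1352 and 1226 with 5D, which makes them low genes in a deep data set.

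H2-Ab1, the β chain of I-A, had the most counts of the 6. Its gene lies at chr17:34257689-34269419 on mm10 (ENSMUSG00000073421.6). It had 478 and 417 counts with vehicle and 550 and 573 counts with 5D, which are 20.6, 20.8, 20.3 and 20.04 normalised CPM in that order. The 5D levels lay under those of vehicle in each pair of libraries, but by less than the width of any counting interval, the narrowest of which ran from 18.4 to 21.7. The log2 fold change of 5D over vehicle was -0.039 (SE 0.12, 95% interval -0.30 to 0.23), with an adjusted p-value of 0.981 (quasi-likelihood test in edgeR, Benjamini-Hochberg over the whole set of genes tested).

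H2-Aa, the α chain that pairs with H2-Ab1, had far fewer counts and varied more. It lies at chr17:34282744-34287823 (ENSMUSG00000036594.15) and had 26 and 11 counts with vehicle and 53 and 46 counts with 5D. These are 1.12 and 0.550 normalised CPM with vehicle and 1.95 and 1.61 with 5D. Both 5D libraries were above both vehicle libraries, and the second vehicle library was at 0.491 of the level of the first. The log2 fold change was 1.07 (SE 0.47, 95% interval 0.042 to 2.11), with an unadjusted p-value of 0.0427 and an adjusted p-value of 0.649 by edgeR, so that it did not pass the test over all genes. Without the second vehicle library the log2 fold change was 0.66 (adjusted p = 0.902 by edgeR), and without the first it was 1.68 (adjusted p = 0.221).

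H2-Eb1, the β chain of I-E, lies at chr17:34305867-34316674 (ENSMUSG00000060586.11). It had 47 and 43 counts with vehicle, or 2.02 and 2.15 normalised CPM, and 95 and 67 counts with 5D, or 3.50 and 2.34 normalised CPM. The 5D libraries were above the vehicle libraries, and most of the distance came from the first 5D library. The log2 fold change was 0.48 (SE 0.33, 95% interval -0.24 to 1.21, adjusted p = 0.820 by edgeR).

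H2-DMa, the α chain of H2-DM, lies at chr17:34119541-34139101 (ENSMUSG00000037649.10) and had the most counts after H2-Ab1. It had 324 and 285 counts with vehicle, or 13.9 and 14.2 normalised CPM, and 452 and 422 counts with 5D, or 16.7 and 14.8 normalised CPM. The 5D libraries were again above the vehicle libraries, with a log2 fold change of 0.16 (SE 0.14, 95% interval -0.16 to 0.47, adjusted p = 0.883 by edgeR). Of its 3448 exon bases, 360 (10.4%) lie on exons of Brd2, a bromodomain gene on the opposite strand with 5057 to 7572 counts per library. The library kit does not mark the strand, so that reads from these bases cannot be told apart. Per kb of exon, Brd2 was at 6.51 to 7.94 times H2-DMa. The levels, shares and ranks of H2-DMa may thus hold reads of Brd2, whose part was not measured. Brd2 itself had a log2 fold change of 0.019 (SE 0.053, adjusted p = 0.978 by edgeR).

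Cd74 (ENSMUSG00000024610.15) had 90 and 64 counts with vehicle, or 3.87 and 3.20 normalised CPM, and 172 and 87 counts with 5D, or 6.34 and 3.04 normalised CPM. It was the only member whose groups overlapped, since the first 5D library was the highest of the 4 and the second was the lowest. The 5D libraries differed more from each other (the second at 0.480 of the first) than the vehicle libraries did (0.825). The log2 fold change was 0.40 (SE 0.34, 95% interval -0.34 to 1.14, adjusted p = 0.865 by edgeR), and it was -0.22 without the first 5D library.

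Ciita, at chr16:10480059-10528418 (ENSMUSG00000022504.10), had 31 and 24 counts with vehicle, or 1.33 and 1.20 normalised CPM, and 30 and 31 counts with 5D, or 1.11 and 1.08 normalised CPM. The 5D libraries lay below the vehicle libraries by less than the counting error of 24 to 31 counts. The log2 fold change was -0.21 (SE 0.44, 95% interval -1.18 to 0.75, adjusted p = 0.959 by edgeR). The interval was nearly as wide as that of H2-Aa, the other gene with few counts. Of its 9535 exon bases, 329 (3.5%) lie on exons of Dexi on the opposite strand, which had 716 to 1166 counts per library. With only 24 to 31 counts per library, the levels, shares, ranks and profile of Ciita may hold reads of Dexi. Their part was not measured and may be large.

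**Figure D1:**
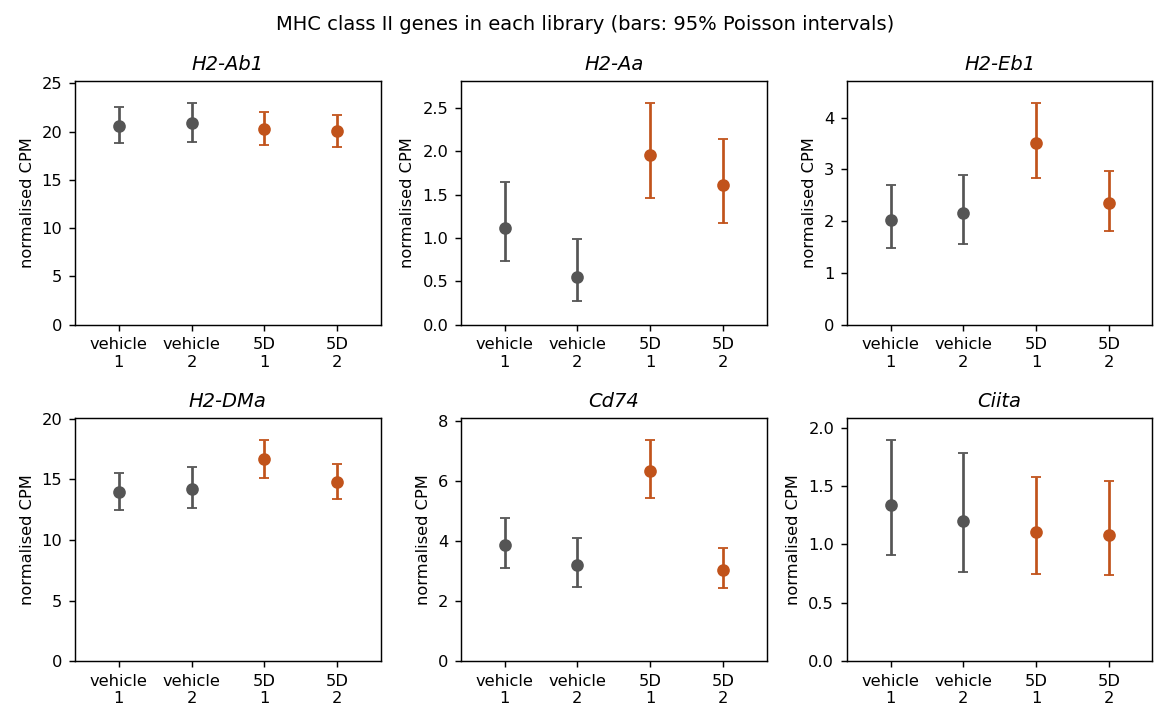
Normalised CPM of each of the 6 class II genes (1 panel a gene, axis from 0) in the 2 vehicle libraries (grey) and the 2 5D libraries (orange), with exact 95% Poisson intervals for counting error. H2-Ab1 lay between 20.04 and 20.8 in all 4 libraries, and H2-Aa was higher in both 5D libraries. H2-Aa, H2-Eb1, H2-DMa and Cd74 were each highest in the first 5D library.

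None of the 6 genes passed an adjusted p-value of 0.05, where 17 of 17650 genes tested (0.0963%) did. At an unadjusted p-value of 0.05, 1 of the 6 passed, H2-Aa, which was higher with 5D. Over all genes tested this was 7.34%, with 3.50% higher and 3.84% lower. The groups did not overlap for 5 of the 6 genes, with 5D higher for 3 and lower for 2, and over all genes tested they did not overlap for 37.6%. Of the log2 fold changes 4 were above 0 and 2 below, with a median of 0.28, beside a median of -0.0016 over all genes tested. For a single gene, an exact permutation test of 2 against 2 libraries cannot reach a p-value of 0.05.

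The summed level of the 6 genes was 42.9 and 42.2 normalised CPM with vehicle and 49.8 and 42.9 with 5D. The first 5D library stood above the others, with an interval of 47.2 to 52.5 where the highest of the other 3 intervals reached 45.6, and the second 5D library overlapped with the vehicle group. The log2 ratio of the group means was 0.12, and it was 0.012 without the first 5D library. Without H2-Ab1, the other 5 genes summed to 22.3 and 21.3 normalised CPM with vehicle and 29.6 and 22.8 with 5D.

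The makeup of the class II transcripts was also taken within each library, where it does not depend on the scaling between libraries. H2-Ab1 gave 48.0% and 49.4% of the summed counts of the 6 genes with vehicle and 40.7% and 46.7% with 5D. The exact Clopper-Pearson interval of the first 5D library (38.0% to 43.4%) lay below those of both vehicle libraries, the lower of which began at 44.8%, and that of the second (43.9% to 49.6%) overlapped with them. H2-DMa held between 32.5% and 34.4% in all 4 libraries. Cd74 gave 9.04% and 7.58% with vehicle and 12.7% and 7.10% with 5D, which placed the first 5D library apart from the second. H2-Aa gave 2.61% and 1.30% with vehicle and 3.92% and 3.75% with 5D. The shares of H2-Eb1 ran from 4.72% to 7.03%, and those of Ciita from 2.22% to 3.11%.

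Levels of different genes were also compared per kilobase of exon. In all 4 libraries the order was H2-Ab1, H2-DMa, Cd74, H2-Eb1, H2-Aa and Ciita, with means over the 4 libraries from 7.96 normalised CPM per kb (H2-Ab1) to 0.124 (Ciita). H2-Ab1 was 1.63 to 1.98 times H2-DMa, and the counting intervals were apart in all 4 libraries, as were those of H2-DMa against Cd74 and of H2-Eb1 against H2-Aa. The intervals of Cd74 and H2-Eb1 were apart in 2 libraries, and those of H2-Aa and Ciita in 2, so that these neighbours did not differ beyond counting error in the other 2. Among the genes tested, H2-Ab1 stood at the percentiles 67.8 to 68.4 per kb and Ciita at 12.6 to 14.3, and the others lay between, with H2-DMa at 56.6 to 59.3, Cd74 at 45.4 to 55.5, H2-Eb1 at 38.7 to 45.2 and H2-Aa at 14.7 to 30.0.

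The chains of I-A were unequal in their transcripts. Per kb of exon, H2-Ab1 was 27.2 and 56.1 times H2-Aa in the vehicle libraries and 15.3 and 18.4 times in the 5D libraries, with a mean of 29.3. With the length of the principal transcript of each gene, an alternative chosen after seeing the data, the mean was 18.4, and H2-Eb1 was 0.984 to 2.64 times H2-Aa, above it in 3 of 4 libraries and with intervals apart in 1. H2-Ab1 was 4.38 to 7.70 times H2-Eb1 and 2.09 to 4.31 times Cd74 per kb. BALB/c mice carry the H2-d haplotype, whereas the reference genome is of C57BL/6 mice with H2-b, and the class II chains are among the most variable genes between mouse strains. How many reads of each chain failed to align was not measured, which limits the levels of H2-Aa, H2-Ab1 and H2-Eb1 against each other, while the comparison of 5D with vehicle used the same strain on both sides.

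The other class II genes were chosen as a list. H2-Oa, the α chain of H2-DO, which restrains H2-DM, had 145 and 111 counts with vehicle and 136 and 202 with 5D, or 6.24, 5.55, 5.01 and 7.06 normalised CPM. The 5D libraries enclosed the vehicle libraries, and the log2 fold change was 0.034 (SE 0.23, adjusted p = 0.996 by edgeR). Of its exon bases 22.8% lie on those of BC051537 on the opposite strand. Its partner H2-Ob had 3 counts in the first vehicle library and 0 in the others, at or under a floor of 3 counts in every library, so no fold was given.

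H2-DMb2, a β chain of H2-DM, had 7, 6, 11 and 10 counts (log2 fold change 0.32, SE 0.81, adjusted p = 0.971 by edgeR), and its near-identical copy H2-DMb1 had 0, 1, 3 and 1, at or under the floor of 3 counts in every library. The unrounded values of the copies were fractions in 2 libraries but added up to 7, 7, 14 and 11, so that reads were divided between them and each alone is uncertain. Per kb, H2-DMa, with any Brd2 reads it holds, was 23.5 and 20.5 times the sum of both β chains with vehicle and 16.2 and 19.4 times with 5D. H2-Ea-ps, the α chain partner of H2-Eb1, which was chosen after its values were seen, is annotated as a polymorphic pseudogene since C57BL/6 mice do not make it. It had 14, 5, 15 and 8 counts, with a log2 fold change of -0.052 (SE 0.78, adjusted p = 0.997 by edgeR). H2-Eb2 was not analysed here.

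**Figure D2:**
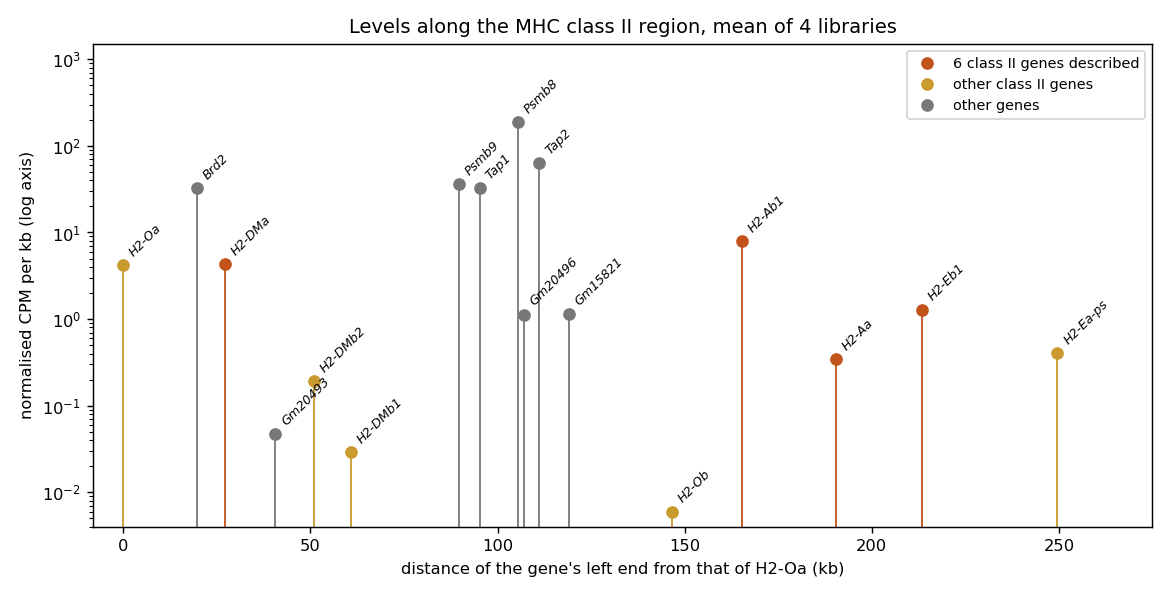
Mean level over the 4 libraries in normalised CPM per kb of exon (log axis) of genes along the class II region of chromosome 17, by the distance of the left end of each gene from that of H2-Oa in kb. H2-Ab1 (7.96), H2-DMa (4.32) and H2-Oa (4.24) stood above H2-Eb1 (1.29), H2-Ea-ps (0.407), H2-Aa (0.344), H2-DMb2 (0.194), H2-DMb1 (0.0291) and H2-Ob (0.0060). The class I pathway genes that lie between them, Psmb9 (36.1), Tap1 (32.9), Psmb8 (187) and Tap2 (63.4), stood above all class II genes.

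In these libraries the class II region thus held genes of very different measured levels side by side. Psmb9 and Psmb8 encode subunits of the immunoproteasome, and Tap1 and Tap2 the pump that carries peptides to class I molecules. Across the 11 class I presentation genes the level per kb ran from 7.16 to 2586, and H2-D1, a class I heavy chain, was 208 and 218 times H2-Ab1 per kb with vehicle and 233 and 232 times with 5D. In the comparison with 5D, 6 of the 11 had log2 fold changes above 0 and 5 below (median 0.012), none passed the adjusted test, and 2 passed the unadjusted one (18.2%, beside 7.34% of all genes tested). These were Erap1, a peptide-trimming protease, at 0.22 (SE 0.063, adjusted p = 0.485 by edgeR), and H2-D1 at 0.087 (SE 0.032, adjusted p = 0.566). H2-D1 lost the unadjusted call without the first vehicle library (0.040) and without the first 5D library (0.071). The third smallest p-value was that of Tapbp, the tapasin of the loading complex, at -0.082 (adjusted p = 0.775 by edgeR).

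The genes of proteins that place Ciita on class II promoters or work with it there were all measured as RNA, and none of the 10 passed either test. The log2 fold changes of 7 were above 0 and of 3 below, with a median of 0.052. Among the RFX subunits, Rfxank had 18.6 and 15.3 normalised CPM with vehicle and 21.1 and 19.97 with 5D (log2 fold change 0.28, SE 0.14, adjusted p = 0.720 by edgeR). Its 5D libraries were above its vehicle libraries. Nfya, the regulatory subunit of NF-Y, had 8.91 and 9.64 with vehicle and 8.22 and 7.06 with 5D (-0.28, SE 0.18, adjusted p = 0.812 by edgeR), and Kat2b, an acetyltransferase that works with Ciita, had a log2 fold change of 0.13 (adjusted p = 0.853).

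Of the 11 genes that regulate Ciita itself, 10 were tested, 8 with log2 fold changes above 0 and 2 below (median 0.049), and none passed the adjusted test. Prdm1, the gene of Blimp-1, which represses Ciita in plasma cells, had 68.2 and 76.6 normalised CPM with vehicle and 53.7 and 63.4 with 5D. Its groups did not overlap, as was so for 37.6% of all genes tested. Its log2 fold change was -0.31 (SE 0.098, unadjusted p = 0.0092, adjusted p = 0.532 by edgeR). When each library was left out in turn it ran from -0.43 to -0.20. It passed the adjusted test without the first vehicle library (-0.39, adjusted p = 0.0297 by edgeR), where 180 genes were called in all, and lost the unadjusted call without the first 5D library (-0.20, adjusted p = 0.778). Jak2 (0.16, adjusted p = 0.711 by edgeR) and Ifngr2 (0.22, adjusted p = 0.712), both in the signalling of interferon-γ, followed. Ifng itself, the main inducer of Ciita in many cells, had 2, 0, 1 and 0 counts, at or under the floor in all libraries.

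Endosomal processing genes were present throughout, and 6 of the 11 had log2 fold changes above 0 and 5 below, with a median of 0.012. None passed the adjusted test and 1 passed the unadjusted one (9.09%, beside 7.34% of all genes tested). This was Cd63, a tetraspanin of late endosomes, with 4.99 and 4.55 normalised CPM with vehicle and 6.45 and 7.52 with 5D. Both 5D libraries were above, where groups did not overlap for 37.6% of all genes tested. Cd63 had a log2 fold change of 0.55 (SE 0.22, adjusted p = 0.612 by edgeR). It lost the unadjusted call without the second vehicle library (0.48) and without the second 5D library (0.43). Sppl2a, the protease that removes the last stub of Cd74, had a log2 fold change of 0.14 (SE 0.063, adjusted p = 0.677 by edgeR), and the cathepsin Ctsl one of -0.24 (SE 0.15, adjusted p = 0.797). Ctss, the cathepsin that trims Cd74 in many class II cells, had 15.97, 15.99, 17.7 and 15.4 normalised CPM.

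In the list of class II turnover and costimulation, 7 of 8 genes were in the table and 5 were tested, with none past either test. March1, the ligase that removes class II molecules from the surface, had 0, 1, 0 and 2 counts, and its relative March8 had a log2 fold change of -0.062 (adjusted p = 0.982 by edgeR). Cd83, which protects class II molecules from that ligase, had 23 and 16 counts with vehicle and 51 and 6 with 5D. It was thus highest in the same library as Cd74, H2-Eb1, H2-Aa and H2-DMa, and lowest in the other 5D library. Of the costimulatory genes, Cd86 had 0, 2, 4 and 0 counts, Cd80 had 22, 16, 31 and 27, and Cd40 had 3, 7, 3 and 33, the last of these in a single library (log2 fold change 1.41, SE 1.02, adjusted p = 0.829 by edgeR). Mif, the ligand of Cd74, was at 471 to 481 normalised CPM. Lag3 was not analysed here.

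Over all these lists together, 49 of 56 genes were tested, with 32 log2 fold changes above 0 and 17 below and a median of 0.050. Over all genes tested, 8763 were above 0 and 8887 below. Unadjusted p-values passed for 4 of the 49 (8.16%), with 3 higher and 1 lower, beside 7.34% of all genes tested, and adjusted ones for none.

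**Figure D3:**
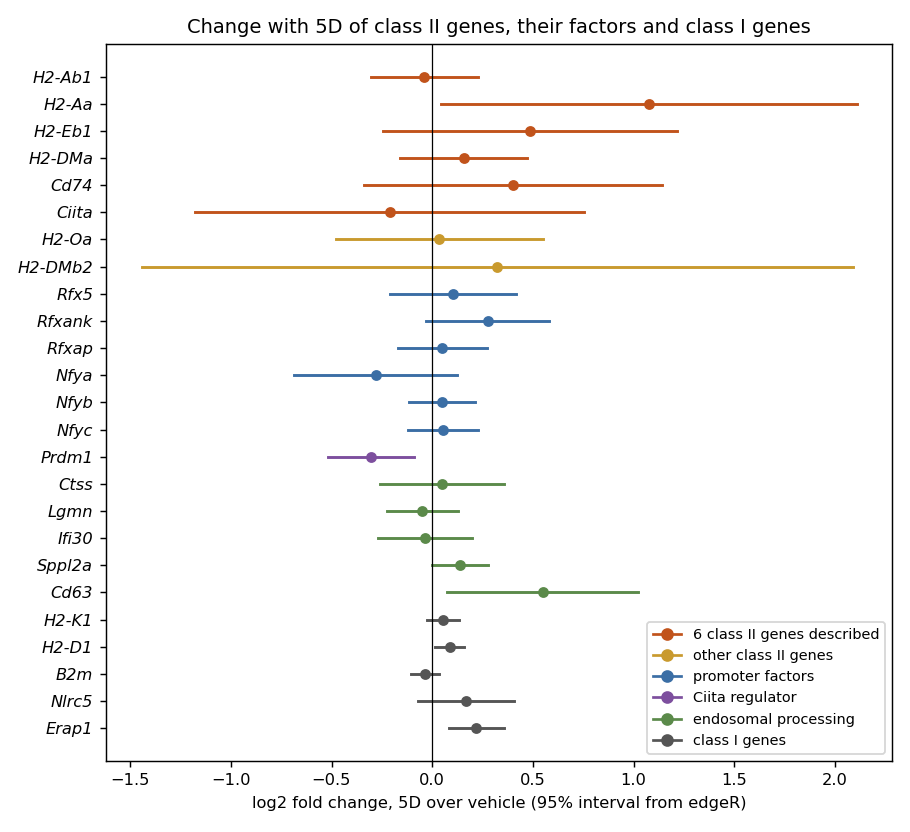
Log2 fold changes of 5D over vehicle (points) with 95% intervals from edgeR (lines) for the 6 class II genes, for other class II genes, for the RFX and NF-Y subunits, for the 4 pathway genes past the unadjusted threshold and for other examples of endosomal processing and class I genes. The intervals of H2-Aa (0.042 to 2.11), Cd63 (0.074 to 1.02), H2-D1 (0.016 to 0.16) and Erap1 (0.082 to 0.36) lay above 0, that of Prdm1 (-0.52 to -0.092) lay below, and H2-K1, H2-D1 and B2m had the narrowest intervals.

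The 6 genes did not follow a common profile over the 4 libraries, although H2-Aa, H2-Eb1, H2-DMa and Cd74 were each highest in the first 5D library. H2-Ab1 and Ciita were each highest in a vehicle library. Likeness was measured as the Euclidean distance between log2 levels centred on their mean over the 4 libraries. Among the 6, H2-Ab1 and Ciita lay nearest to each other (0.21), followed by H2-Ab1 and H2-DMa (0.22), and H2-Aa and Ciita were farthest apart (1.51). H2-Aa was at 1.42 from its partner H2-Ab1. Cd74 and H2-Eb1, both highest in the first 5D library, were at 0.45.

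Other genes with at least 1 normalised CPM on average were then ranked by the same distance, over 12330 genes. The nearest to H2-Aa were Unc5cl (0.14) and B3galt5 (0.19), and no other gene lay within 0.2. For Cd74 they were Gm43681 (0.12) and Gm2788 (0.13), among 7 within 0.2, and for H2-Eb1 BC085271 (0.081) and Gm11613 (0.092), among 25. The flatter members had many like genes, since 5906 genes lay within 0.2 of H2-Ab1, led by Prkaca and Gstp1, 2750 within 0.2 of H2-DMa, led by Flvcr1 and Mmut, and 1733 within 0.2 of Ciita, led by Gm12751 and Fes. With 4 libraries such distances describe these libraries and their depths, which all genes of a library share.

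**Figure D4:**
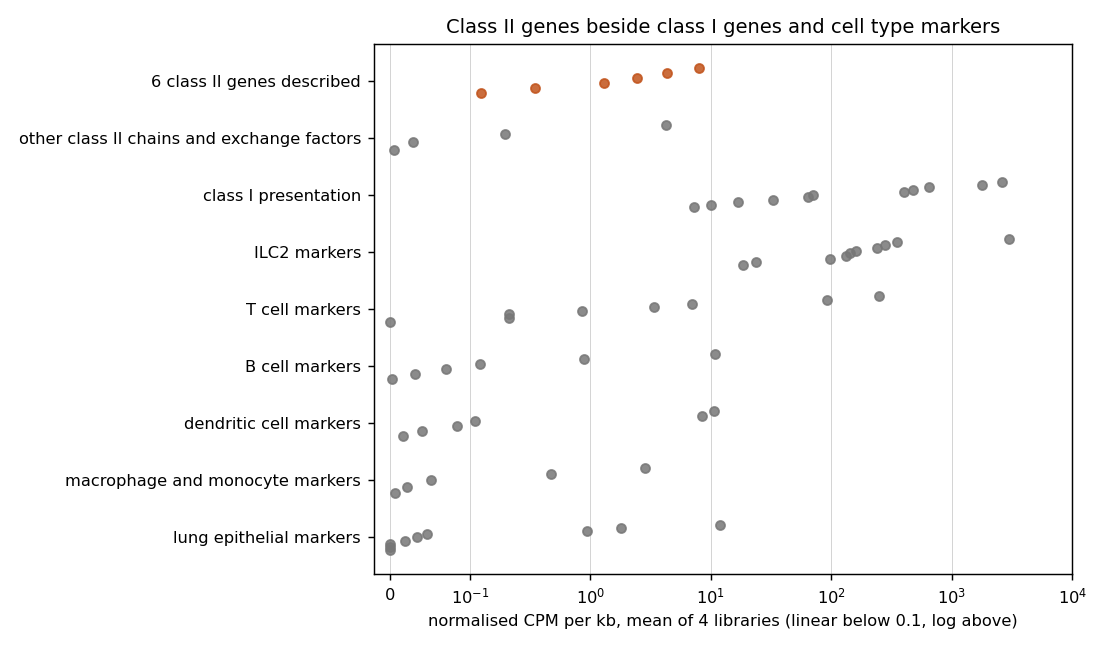
Mean level over the 4 libraries in normalised CPM per kb of exon (linear below 0.1, log above) of each gene in the lists, 1 point a gene. The 6 class II genes lay between 0.124 and 7.96 (median 1.87), below all 10 ILC2 markers (from 18.3). But for H2-Ab1, they also lay below all class I genes (from 7.16). Median levels of markers were 2.11 for T cells, 0.096 for B cells, 0.097 for dendritic cells, 0.051 for macrophages and monocytes and 0.034 for lung epithelium. The highest genes of these lists were at 248, 10.9, 10.5, 2.86 and 11.9 in that order.

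Markers of the main class II cells were measured beside the 6 genes, and the sort had used lineage antibodies against many of these cells. Of 10 B cell markers 6 were in the table, and the others were not analysed here. The summed level of these 6 was 16.2 to 21.04 normalised CPM with vehicle and 15.99 to 17.6 with 5D. It came mostly from Cd79b (13.4 to 19.1) and Ighm (1.38 to 2.10), while Cd79a had 4 or 5 counts in each library.

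The 6 dendritic cell markers in the table summed to 62.8 and 68.5 normalised CPM with vehicle and 53.0 and 53.9 with 5D, mostly from Xcr1 (35.2 to 38.8) and Ccr7. Ccr7, a chemokine receptor that lymphocytes also carry, had 23.1 and 29.3 with vehicle and 16.8 and 13.9 with 5D (log2 fold change -0.77, SE 0.15, adjusted p = 0.165 by edgeR). Itgax, the gene of CD11c, had 7 to 20 counts. The 5 macrophage and monocyte markers summed to 2.97 and 6.45 with vehicle and 4.72 and 4.16 with 5D, led by Cd68 and by Lyz2, which had 35 counts in the second vehicle library and 4 to 10 in the others.

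The 8 T cell markers summed to 273 to 286 normalised CPM with vehicle and 289 to 294 with 5D. Trbc2 (164 to 178) and Trbc1 (63.6 to 72.2) led the sum, followed by Cd3g (21.6 to 24.6), Cd247 (15.3 to 19.1) and Cd3e (2.76 to 4.13). Cd3d had 5 to 12 counts per library, Trac had 0 to 8, and Cd4 had 0 in all libraries. The 9 lung epithelial markers summed to 30.4 to 31.6 with vehicle and 32.8 to 35.6 with 5D, led by Epcam and Napsa, with Sftpa1, Krt8 and Scgb1a1 at 0 in all libraries. The first 5D library had the highest sum in none of these 5 lists, sums that rest on a few abundant genes. H2-Aa, H2-Eb1, H2-DMa, Cd74 and the summed class II level were highest in that library. Of the 30 markers with any counts, 6 were highest in that library, 10 in the second 5D library, 3 in the first vehicle library and 11 in the second. Among the 6 were Cr2 with 3, 4, 15 and 4 counts, Clec10a with 1, 0, 4 and 0, and Cd68 with 2.71, 3.65, 4.02 and 3.99 normalised CPM. The second vehicle library, in which H2-Aa was lowest, had the highest B cell, dendritic cell and macrophage sums. The part of other cells in the class II levels was not tested, and in bulk RNA fewer cells that carry a transcript and less of it per cell cannot be told apart.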

How the data were processed

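RNA of sorted and cultured lung ILC2s was measured in 2 vehicle and 2 5D libraries. The authors aligned the reads with STAR 2.6.1 to mm10 and quantified them with GENCODE M21 in Partek, and deposited estimated counts per gene before normalization. These were rounded to whole numbers here. Gene Set Analysis, which the authors ran, was replaced by edgeR 4.0.16 (R 4.3.3), with factors from the upper quartile over all genes, a two-sided quasi-likelihood test without covariates and Benjamini-Hochberg adjustment. Genes with a mean normalised count of at least 1 and a sum of at least 10 were tested (17650, with 4904 left out). Standard errors were taken as the size of the log2 fold change over the square root of F. Coordinates and exon lengths are those of GENCODE M21, to which 22085 symbols matched, and 19 of 21 names that a spreadsheet had turned into dates were recovered. Culture time and RNA input differ between the labels and the published methods.

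The 6 genes, the lists and the tests were chosen with earlier results of these data known. Named were the 6 genes, the other class II genes, the 3 smallest p-values of each pathway list, the 2 most abundant markers of each cell type and the 2 nearest profiles. Other genes were chosen after their values were seen. Alternatives were TMM, DESeq2's size factors, the upper quartile after the filter, DESeq2 1.42.0, limma-voom 3.58.1, no filter, filterByExpr, the replicate block, thinned libraries and leaving out each library. The code was tested on simulated data, and replicates differed by more than sampling noise (chi-square per gene 6.10 and 6.66). Plots used Python 3.11.15 with matplotlib 3.10.9.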

Additional observations from a re-analysis of the deposited data

How the results depend on the processing

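No adjusted p-value of the 6 class II genes passed under any alternative that gave one. DESeq2, 1 of the 13 alternatives, gave no adjusted p-value for any of the 6, nor for the pathway gene Cd63. The log2 fold changes kept their sign under all 13 except that of Cd74, which ran from -0.22 without 5D replicate 1 to 0.84 without 5D replicate 2. That of H2-Aa ran from 0.66 to 1.68, with an unadjusted p-value under 0.05 in 9 of 13. The number of the 6 genes past the unadjusted threshold was 1, but 0 with DESeq2, and it ran from 0 to 1 when each library was left out, with 0 without vehicle replicate 2 or 5D replicate 1, and with Cd74 in place of H2-Aa without 5D replicate 2. The summed log2 ratio of 0.12 ran from 0.012 (without 5D replicate 1) to 0.23 when each library was left out. Of the pathway genes, 4 passed the unadjusted threshold, 3 with DESeq2, 7 after thinning, and 4 to 8 when each library was left out, and these were not the same genes throughout. Erap1 passed in 13 of 13 alternatives, Prdm1 in 12 (not without 5D replicate 1), H2-D1 in 11 (not without vehicle replicate 1 or 5D replicate 1) and Cd63 in 10 (not with DESeq2, without vehicle replicate 2 or without 5D replicate 2). The adjusted threshold was passed by 0 of them, or by 0 to 1 when each library was left out, the 1 being Prdm1 without vehicle replicate 1.

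Over all genes, 17 adjusted calls became 58 with DESeq2, 32 with limma-voom, 46 without a filter, 26 with filterByExpr and 41 with the replicate block, and ran from 15 to 180 when each library was left out, with 180 without vehicle replicate 1 and 79 without vehicle replicate 2. Unadjusted calls were 778 with DESeq2. The causes were not tested. Leaving out a library leaves 1 in its group, which is assumed to vary like the others. The replicate numbers were not shown to pair the libraries (correlation of deviations 0.060 over 8737 genes), and the block changed no call of the 6 genes. With 11 to 53 counts per library, depth limits H2-Aa and Ciita most.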
